A study of Mus musculus with 6 samples.

Results

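The interferon response and antigen presentation were examined through 33 genes, chosen by symbol from the 23067 genes of the deposited table, and all 33 had a row. They code for the type I interferon receptor, the sensors and transcription factors around it, the antiviral proteins that interferon induces, the machinery that loads peptides onto MHC class I, and 2 complement proteins. The measurements are bulk RNA sequencing of dorsal striatum from mice at postnatal day 21, in 3 libraries per genotype. The wild-type group carries Lrrk2 WT/WT. The knock-in group is homozygous for the G2019S change in Lrrk2, the kinase altered in familial Parkinson's disease, introduced as a knock-in at the gene's own locus. No treatment is given for either group, and no strain is named in the sources used here. The titles call all samples male, yet Xist stood at 27.2 to 39.3 FPKM in the 6 libraries and 0 of 4 Y-linked genes looked for had a row, so the sex in the labels is in doubt for both groups. Levels are in FPKM, fragment counts scaled to transcript length and sequencing yield, so genes can be set side by side. The labels do not tie each sample to an animal of its own, and the p-values therefore cover only the spread among these libraries, part of which may be technical.

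Type I interferons bind a receptor made of IFNAR1 and IFNAR2, whose kinases JAK1 and TYK2 activate STAT2. It joins IRF9, enters the nucleus and binds a short element in front of target genes, the interferon-stimulated response element (ISRE). A tonic trickle of interferon keeps a low level of this programme in healthy tissue, brain included, where microglia, endothelial cells and astrocytes hold much of it. MHC class I molecules show peptides cut by the proteasome and carried into the endoplasmic reticulum by the TAP transporter, and in brain they have also been studied at synapses. Complement proteins C3 and C4 tag synapses and debris for uptake by microglia.

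The promoters of 7 members are shown first, 6 of them with an ISRE match. RefSeq promoter windows on GRCm38.p6 were found for 30 of the 33 members, all but C4b, Tap2 and Ifi27. The 250 bases before each start were searched on both strands for the ISRE core, GAAA followed by any 2 bases and GAAA again, or its reverse with TTTC in both places, and overlapping matches count separately. At least 1 match was found in 9 of the 30 members, against 3.46% of 27025 genes with a window. The matches fell in 7 of 10 antiviral effectors with a window (Bst2, Ifit1, Ifit3, Ifitm2, Isg15, Oas1c and Rsad2), in 1 of 6 transcription factors (Stat2) and in 1 of 7 genes of the MHC class I group (B2m). The shorter STAT element TTCNNNGAA, which reads the same on both strands, was found in 5 of 30 members (Bst2, Ifit2, Ifnar2, Irf1 and Psmb8), against 8.13% of all genes. A match describes the letters only. The 170 bases before the start are printed for the genes on which the results below turn or that carry the clearest elements, 5′ to 3′ on the coding strand, with ISRE matches in capitals. Ifit3 lies at chr19:34583359-34583528 (+), Ifit1 at chr19:34640719-34640888 (+), Isg15 at chr4:156200819-156200988 (-), Bst2 at chr8:71537473-71537642 (-), B2m at chr2:122147517-122147686 (+), Ifitm2 at chr7:140955962-140956131 (-) and Ifitm3 at chr7:141010745-141010914 (-).
Ifit3: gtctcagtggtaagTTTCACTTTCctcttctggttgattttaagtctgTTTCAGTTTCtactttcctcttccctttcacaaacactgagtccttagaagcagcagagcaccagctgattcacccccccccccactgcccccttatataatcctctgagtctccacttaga
Ifit1: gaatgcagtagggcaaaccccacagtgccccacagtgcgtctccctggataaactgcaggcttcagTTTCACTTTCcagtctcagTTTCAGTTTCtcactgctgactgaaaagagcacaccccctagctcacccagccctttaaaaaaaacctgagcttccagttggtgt
Isg15: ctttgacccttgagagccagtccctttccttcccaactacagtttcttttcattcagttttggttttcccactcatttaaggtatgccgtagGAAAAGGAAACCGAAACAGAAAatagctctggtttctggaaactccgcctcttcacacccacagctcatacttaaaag
Bst2: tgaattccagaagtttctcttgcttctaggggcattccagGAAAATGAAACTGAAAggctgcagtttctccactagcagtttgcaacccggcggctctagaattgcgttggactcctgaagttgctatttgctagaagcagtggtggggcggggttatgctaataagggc
B2m: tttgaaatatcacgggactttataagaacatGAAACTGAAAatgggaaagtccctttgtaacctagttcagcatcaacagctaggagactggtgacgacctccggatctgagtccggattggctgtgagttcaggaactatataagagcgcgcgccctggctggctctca
Ifitm2: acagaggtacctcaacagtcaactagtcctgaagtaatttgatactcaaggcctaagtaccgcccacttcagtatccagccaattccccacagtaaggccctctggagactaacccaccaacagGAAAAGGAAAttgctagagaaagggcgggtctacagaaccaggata
Ifitm3: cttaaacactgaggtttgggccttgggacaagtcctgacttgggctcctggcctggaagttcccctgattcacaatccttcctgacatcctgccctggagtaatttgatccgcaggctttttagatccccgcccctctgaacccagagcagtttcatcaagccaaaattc
Isg15 holds 3 overlapping matches and Ifit1, Ifit3 and Bst2 hold 2 each. B2m and Ifitm2 hold 1 match each. Ifitm3, a close relative of Ifitm2, has no match in this window.

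In wild-type striatum the group spanned a wide range of levels, from C3 at 0.119 ± 0.0285 FPKM to B2m at 57.3 ± 4.20 FPKM (SD, n = 3 each). B2m, the invariant light chain of MHC class I, had a mean over the 6 libraries above that of 97.0% of all genes in the table. Nfkbia, Ifitm3, H2-D1 and Ifi27 followed, each between 10.1 and 14.8 FPKM on average over the 6 libraries. At the other end, 9 members averaged under 1 FPKM, which was the minimum for testing. These were Ifih1, Irf7, Ifit1, Oasl2, Oas1c, Rsad2, Tap1, Psmb9 and C3, many of them genes that interferon induces strongly from a low base. Their levels are described without a test. The nearest to the minimum were Ifit2 at 1.11 FPKM and Irf1 at 1.14 FPKM above it and Ifit1 at 0.669 FPKM and Oasl2 at 0.631 FPKM below it.

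**Figure D1:**
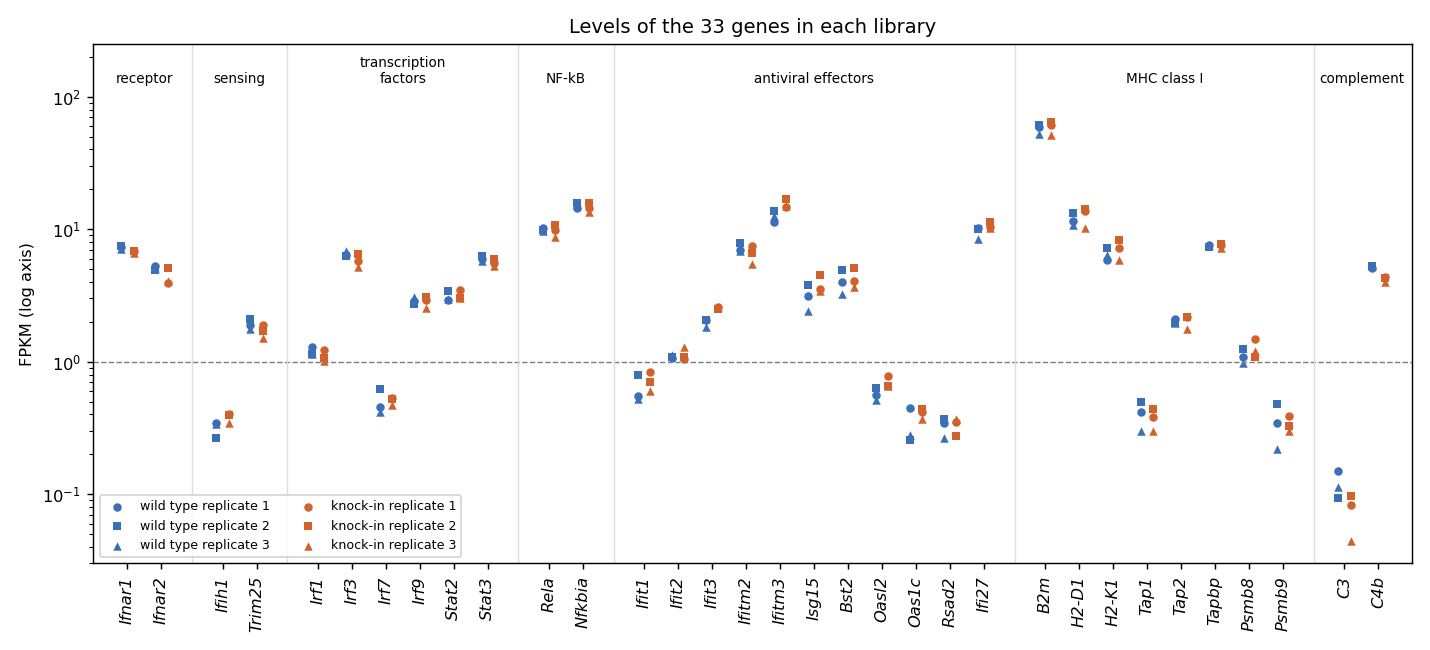
FPKM on a log axis for the 33 genes, grouped by role, with 1 point per library (blue for wild type, orange for knock-in, the symbol for the replicate number) and a dashed line at the minimum of 1 FPKM for testing. B2m stands highest, at 51.8 to 64.1 FPKM, and C3 lowest, at 0.0444 to 0.149 FPKM.

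The genotypes were compared gene by gene in limma on log2(FPKM + 1), a scale on which low genes appear to change less, over the 14156 genes that averaged 1 FPKM or more. Of the 24 members tested, 0 were called at an adjusted p under 0.05, where 0.0212% of all genes tested were called (3 genes, none of them a member). The adjusted p was 0.997 for every tested member. Leaving out wild type replicate 2 or knock-in replicate 1, 2 or 3 gave 8, 11, 14 and 6 called genes, again with 0 members. At an unadjusted p under 0.05 in limma, 2 members were higher in knock-in (Ifit3 and Ifitm3) and 1 lower (C4b), against 1.25% and 3.02% of all genes tested in those directions and 4.27% in either. The 3 knock-in libraries lay wholly above the 3 wild-type libraries in 3 tested members (Ifit3, Ifitm3 and Ifi27), where 2.92% of all genes tested did so, and wholly below them in 2 (Ifnar1 and C4b), where 6.58% did. Those 5 of 24 members compare with 9.51% of all genes tested in either direction. Of the 9 members under the minimum, 2 lay wholly higher in knock-in (Ifih1 and Oasl2) and 0 wholly lower. Of all 23067 genes with a row, 14156 were tested, and of the others 351 lay wholly higher and 693 wholly lower. The share wholly higher was thus larger among the 9 members than among all untested genes, but it rests on 2 genes and was not tested. The log2 difference was above 0 in 13 tested members and below 0 in 11, with a median of 0.013. It was above 0 in 43.6% of all genes tested, with a median of -0.014. Fold changes below are ratios of group means in FPKM. Each interval of the fold is the 95% interval from limma, taken on log2(FPKM + 1). It therefore covers the fold in FPKM + 1, not the printed ratio, and lies closer to 1 for low genes.

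**Figure D2:**
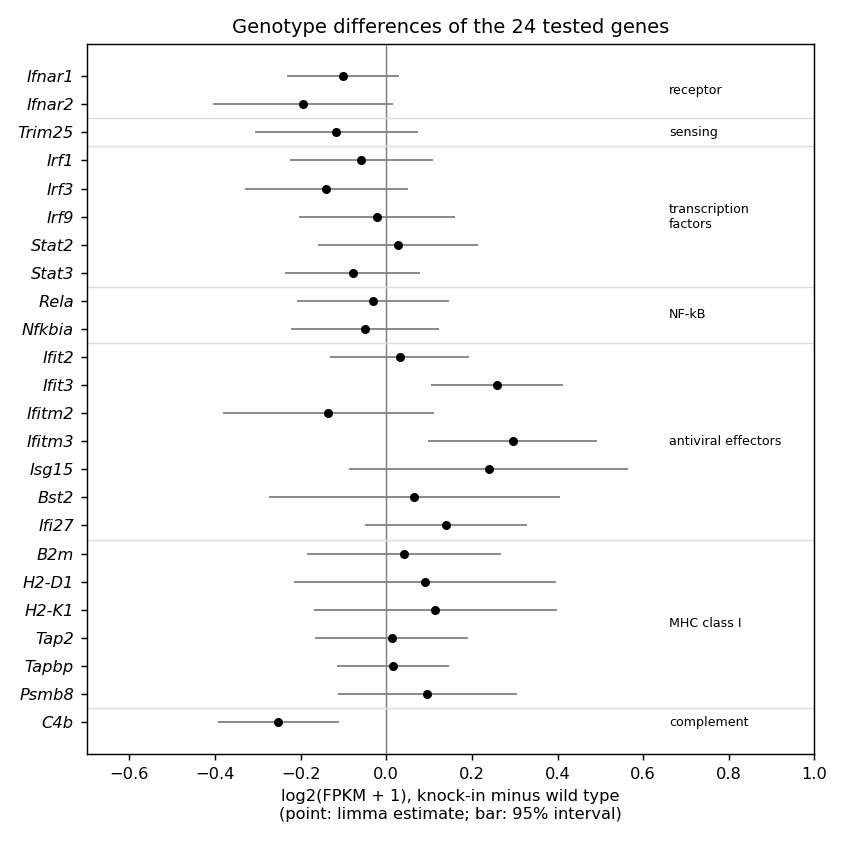
Knock-in minus wild-type difference in log2(FPKM + 1) for the 24 tested genes, ordered by role, with the limma estimate as a point and its 95% interval as a bar. The intervals of Ifit3, Ifitm3 and C4b do not include 0, before any adjustment for the number of genes tested, and the other 21 do.

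Both receptor chains averaged lower in knock-in. Ifnar1, the first chain, was measured at 7.39, 7.48 and 7.08 FPKM in wild type replicates 1 to 3 and at 6.82, 6.89 and 6.55 FPKM in knock-in replicates 1 to 3. The groups did not overlap, but the distance was small, with a ratio of 0.923 and a log2 difference of -0.10 (SE 0.06, adjusted p = 0.997 in limma). Ifnar2, the second chain, stood at 5.29, 4.94 and 5.13 FPKM in wild type against 3.93, 5.10 and 4.09 in knock-in. Knock-in replicates 1 and 3 were below all wild-type libraries and knock-in replicate 2 was among them. The log2 difference was -0.19, with an interval of the fold from 0.755 to 1.01. Without knock-in replicate 2 it was -0.29 (adjusted p = 0.591 in limma). In bulk tissue fewer cells of a type and less RNA per cell cannot be told apart, here or in the results that follow.

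Ifih1, which codes for the MDA5 sensor of viral double-stranded RNA, was under the minimum, at 0.266 to 0.344 FPKM in wild type against 0.345 to 0.401 in knock-in. These ranges did not overlap, at a level where the difference is a small fraction of 1 FPKM. Trim25, the ubiquitin ligase that activates the RIG-I sensor, averaged 1.92 ± 0.166 FPKM in wild type against 1.699 ± 0.195 in knock-in (SD, n = 3 each), with overlapping libraries and a log2 difference of -0.12.

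The transcription factors that carry the signal were close between genotypes. Stat2 stood at 2.94, 3.42 and 2.96 FPKM in wild type against 3.50, 3.02 and 3.03 in knock-in, and Irf9 at 2.88, 2.73 and 3.06 FPKM against 2.92, 3.08 and 2.52 FPKM. The genotypes overlapped in both genes, whose proteins act together at the ISRE. Their log2 differences were 0.03 and -0.02, with intervals of the fold from 0.896 to 1.16 and from 0.868 to 1.12. Irf3, which switches on interferon genes after sensing, averaged 6.496 ± 0.310 FPKM in wild type against 5.82 ± 0.636 in knock-in, with a log2 difference of -0.14. Stat3, which answers to interleukin-6 and other cytokines, averaged 5.99 ± 0.292 and 5.62 ± 0.364 FPKM (SD, n = 3 each). Irf1, a factor induced by interferon gamma, averaged 1.19 ± 0.0839 and 1.099 ± 0.112 FPKM. Irf7, which amplifies the type I response and is itself induced by it, was untested at 0.414 to 0.623 FPKM in wild type against 0.469 to 0.530 in knock-in.

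The NF-kB pair gave no separation either. Rela, the p65 subunit, was at 9.75 to 10.2 FPKM in wild type against 8.76 to 10.7 in knock-in. Nfkbia, the inhibitor that NF-kB induces as its own brake, was at 14.4 to 15.8 FPKM and 13.4 to 15.8 FPKM. Their log2 differences were -0.03 and -0.05, with intervals of the fold from 0.865 to 1.11 and from 0.857 to 1.09.

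Among the antiviral effectors 6 of 7 tested genes averaged higher in knock-in, with a median log2 difference of 0.14, and 0 were called. Ifit3, a member of the IFIT family that binds foreign RNA together with IFIT1, was measured at 2.06, 2.07 and 1.81 FPKM in wild type against 2.61, 2.498 and 2.57 in knock-in. All knock-in libraries exceeded all wild-type libraries, by a ratio of means of 1.29. The log2 difference was 0.26 (SE 0.07, adjusted p = 0.997 in limma), with an interval of the fold from 1.07 to 1.33. Its copy Ifit3b, which was in a list of other pathway genes, stood at 1.12, 0.945 and 1.17 FPKM in wild type against 1.54, 1.32 and 1.34 in knock-in, again without overlap. The pair is not independent, since 51.2% of the 50-base stretches of the Ifit3 transcript also occur in Ifit3b transcripts, so reads could be assigned to either.

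The neighbouring family members did not share this separation. Ifit1 was untested, at 0.552, 0.800 and 0.522 FPKM in wild type against 0.830, 0.706 and 0.601 in knock-in. Ifit2 was at 1.07, 1.08 and 1.12 FPKM in wild type against 1.05, 1.08 and 1.28 in knock-in, a log2 difference of 0.03. Both genes overlapped between genotypes. Ifit1 carries a pair of ISRE matches as Ifit3 does, and the part of these matches in the levels was not tested. The 3 genes lie near each other on chromosome 19 (GENCODE M21, GRCm38, as for the positions below), Ifit2 at 34550694 to 34576419, Ifit3 at 34583531 to 34588731 and Ifit1 at 34640871 to 34650009.

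Ifitm3, a membrane protein that blocks virus entry at endosomes, was measured at 11.3, 13.7 and 12.5 FPKM in wild type against 14.8, 16.9 and 15.0 in knock-in. The groups did not overlap and the ratio of means was 1.24. The log2 difference was 0.30 (SE 0.08, adjusted p = 0.997 in limma), with an interval of the fold from 1.07 to 1.41. Its paralogue Ifitm2 averaged in the other direction, at 6.93, 7.85 and 6.86 FPKM in wild type against 7.46, 6.60 and 5.47 in knock-in, with overlapping libraries and a log2 difference of -0.14. Leaving out 1 library moved this to -0.03 (without knock-in replicate 3), -0.08 (without wild type replicate 2) or -0.23 (without knock-in replicate 1). The ratio of Ifitm3 to Ifitm2 within a library was 1.63, 1.74 and 1.82 in wild type and 1.98, 2.56 and 2.74 in knock-in. This ratio was computed after the values of both genes had been seen and is given without a test. Of the 50-base stretches of Ifitm2, 48.5% occur in other genes, and 36.1% of all its stretches occur in the predicted gene Gm45717, with which it shares 268 of 655 exon bases on the same strand, so its level is uncertain. For Ifitm3 the share was 10.02%. They lie on chromosome 7, Ifitm2 at 140954837 to 140955987 and Ifitm3 at 141009586 to 141010770.

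Ifi27, a mitochondrial protein induced by interferon, was at 10.2, 10.05 and 8.49 FPKM in wild type against 10.3, 11.3 and 10.3 in knock-in. The groups were separated only narrowly, wild type replicate 1 lying just under knock-in replicates 1 and 3, and the log2 difference was 0.14 (adjusted p = 0.997 in limma). Without wild type replicate 3 it was 0.06. Isg15, the ubiquitin-like protein that interferon attaches to many targets, was at 3.11, 3.79 and 2.40 FPKM in wild type against 3.52, 4.48 and 3.44 in knock-in. Wild type replicate 2 lay within the knock-in range, and the spread within each genotype was wide. The log2 difference of 0.24 had an interval of the fold from 0.942 to 1.48. It was 0.11 without wild type replicate 3 and 0.36 without wild type replicate 2. Bst2, or tetherin, which holds budding viruses on the cell surface, ran from 3.23 to 4.94 FPKM in wild type and from 3.68 to 5.07 FPKM in knock-in. The remaining effectors were under the minimum. Oasl2, a relative of the enzymes that activate RNase L, was at 0.510 to 0.628 FPKM in wild type against 0.653 to 0.774 in knock-in, without overlap. Oas1c, of the same enzyme family, ran from 0.256 to 0.445 FPKM over the 6 libraries and Rsad2, which codes for the antiviral protein viperin, from 0.263 to 0.372 FPKM, and the genotypes overlapped in both.

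**Figure D3:**
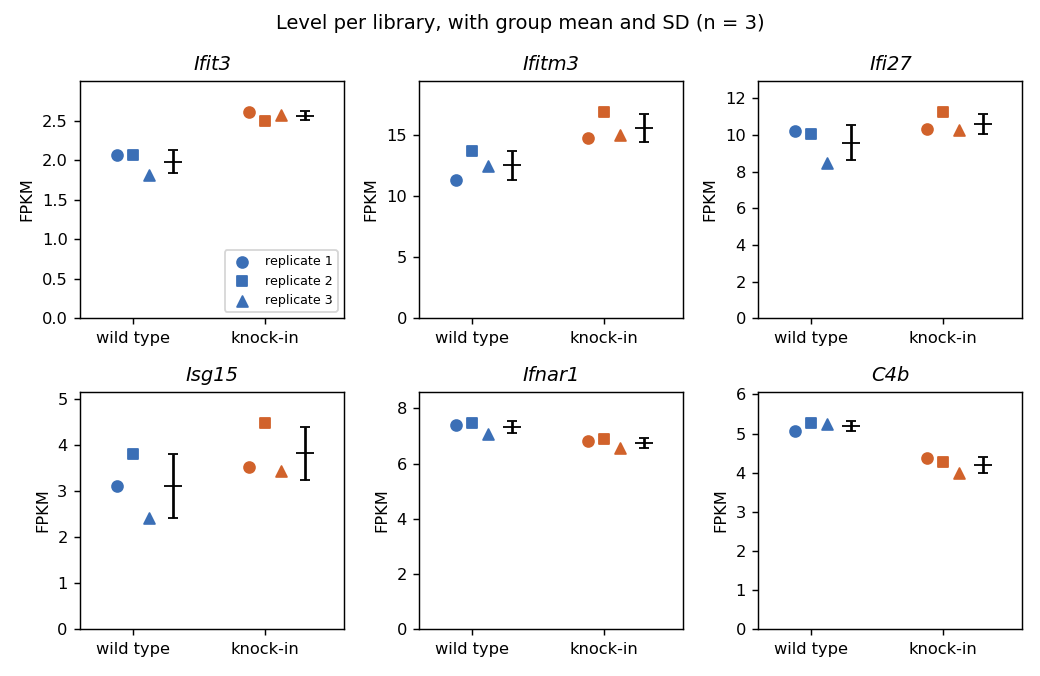
FPKM per library for 6 of the genes, on axes that start at 0, with the group mean and SD beside the points (n = 3). Ifit3, Ifitm3 and Ifi27 lie higher in all knock-in libraries, Ifnar1 and C4b lower in all, and Isg15 overlaps.

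The 6 tested genes of the MHC class I group all averaged higher in knock-in, with a median log2 difference of 0.07, and none separated the genotypes. Without knock-in replicate 2, 3 of them (B2m, Tap2 and Tapbp) averaged lower. B2m was at 58.7, 60.7 and 52.6 FPKM in wild type against 61.6, 64.1 and 51.8 in knock-in. H2-D1, a classical heavy chain, was at 11.6, 13.2 and 10.7 FPKM against 13.7, 14.3 and 10.2 FPKM. H2-K1, the other classical heavy chain measured, was at 5.83, 7.21 and 6.37 FPKM against 7.17, 8.35 and 5.87 FPKM. In all 3 genes knock-in replicates 1 and 2 were high and knock-in replicate 3 fell among or below the wild-type libraries. The log2 differences were 0.04, 0.09 and 0.11, with intervals of the fold from 0.880 to 1.20 for B2m, 0.862 to 1.31 for H2-D1 and 0.889 to 1.32 for H2-K1. Without knock-in replicate 3 the H2-D1 difference was 0.23 (adjusted p = 0.841 in limma), and without knock-in replicate 2 it was 0.0068. For H2-K1 the same differences were 0.23 and 0.0074, with 0.05 without wild type replicate 1 and 0.18 without wild type replicate 2. Both heavy chains share sequence with other class I genes, in 14.3% of the 50-base stretches of H2-D1 and 8.11% of those of H2-K1. B2m was 4.48 to 5.07 times H2-D1 per library, and H2-D1 was 1.68 to 1.99 times H2-K1.

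B2m, H2-D1 and H2-K1 were highest in knock-in replicate 2. Markers of cortical excitatory neurons were highest in knock-in replicate 1 and next in knock-in replicate 2. The summed FPKM of the 12 markers of these cells was 106 and 89.8 there, 54.3 in knock-in replicate 3 and 52.1 to 69.8 in wild type, and 8 of 8 tested markers averaged higher in knock-in. With the mean of these markers as a covariate, the differences of B2m, H2-D1 and Tap2 were each -0.08, that of Tapbp -0.02 and that of Bst2 -0.017. Only 7 of the 24 members were then higher and the median of the 24 was -0.08, while the differences of Ifit3, Ifitm3 and C4b were 0.25, 0.31 and -0.29. As the markers themselves differed between genotypes, this fit cannot tell their part from that of genotype. The part of cortical cells in the levels above was not tested.

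Tapbp, or tapasin, which holds class I to the transporter, was at 7.29 to 7.55 FPKM in wild type against 7.24 to 7.75 in knock-in, with an interval of the fold from 0.923 to 1.11. Tap2 was at 1.95 to 2.10 FPKM against 1.77 to 2.17 FPKM. Tap1, the partner of Tap2 in the peptide transporter, was untested at 0.299 to 0.5002 FPKM in wild type against 0.299 to 0.440 in knock-in. Tap2 exceeded Tap1 by 3.91 to 6.54 times per library. The immunoproteasome subunits Psmb8 and Psmb9 replace Psmb5 and Psmb6 of the constitutive proteasome after interferon. Psmb8, at 0.981 to 1.25 FPKM in wild type against 1.08 to 1.48 in knock-in, amounted to 1.24% to 1.95% of Psmb5 over the 6 libraries. Psmb9, at 0.219 to 0.478 FPKM and 0.299 to 0.387 FPKM, amounted to 0.417% to 0.974% of Psmb6. Psmb10, the third exchanged subunit and not a member, was far higher, at 3.81 to 6.62 FPKM or 15.4% to 26.4% of Psmb7, with a log2 difference of 0.18 (adjusted p = 0.997 in limma). Psmb9 and Tap1 lie head to head on chromosome 17 and share 212 exon bases on opposite strands. The strand setting of the counting is not given in the sources used here, so reads of that stretch cannot be assigned.

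The tested complement gene averaged lower in knock-in. C4b, the fourth complement component, was measured at 5.06, 5.28 and 5.25 FPKM in wild type against 4.37, 4.26 and 3.98 in knock-in. All knock-in libraries were below all wild-type libraries, the spread within each genotype was narrow, and the ratio of means was 0.809. The log2 difference was -0.25 (SE 0.06, adjusted p = 0.997 in limma), with an interval of the fold from 0.761 to 0.926, and C4b had the smallest unadjusted p of the 24 tested members. Its near copy C4a stood at 1.09, 1.20 and 1.17 FPKM in wild type against 1.06, 0.951 and 0.919 in knock-in, also without overlap, and passed the minimum for testing only through wild type. As 35.2% of the 50-base stretches of C4b occur in C4a, the pair is not independent. C4b lies on chromosome 17 at 34728380 to 34743882, within the MHC region. C3, the hub that all complement routes cleave, was untested at 0.0934 to 0.149 FPKM in wild type against 0.0444 to 0.0968 in knock-in, with overlap. Markers of myelinating oligodendrocytes, cells that can express C4b, also averaged lower, with 10 of 10 below wild type, a median log2 difference of -0.25 and a summed FPKM of 3616 to 4122 in wild type and 2942 to 3634 in knock-in. Astrocyte markers were lower in 8 of 10, with sums of 688 to 721 and 633 to 722 FPKM. The part of either cell type in the C4b level was not tested.

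Much of the variation of the group ran between libraries of 1 genotype. Knock-in replicate 3 was the lowest of its group in 18 of the 24 tested members, and knock-in replicate 2 the highest in 16, where 44.9% and 43.1% of all genes tested placed those libraries there. In wild type, replicate 2 was the highest in 15 members and replicate 3 the lowest in 12, against 29.3% and 29.99% of all genes tested. Wild type replicate 2 also stood apart in the 10 markers of ependyma and choroid plexus, which summed to 405 FPKM there and to 21.1 to 45.9 in the other libraries. Of these markers 7 of 7 tested averaged lower in knock-in, with a median log2 difference of -0.39, and their part in the levels here was not tested. Set against the wild-type average of each gene, the median member deviated by 0.03, 0.06 and -0.13 in knock-in replicates 1 to 3, and by -0.01, 0.07 and -0.04 in the wild-type replicates, on the log2 scale. Over all genes tested the same medians lay between -0.04 and 0.0093. In knock-in replicate 3 the members above their log2 mean over the 6 libraries were Ifit2, Ifit3, Ifitm3, Isg15, Ifi27 and Psmb8, all but Psmb8 antiviral effectors.

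**Figure D4:**
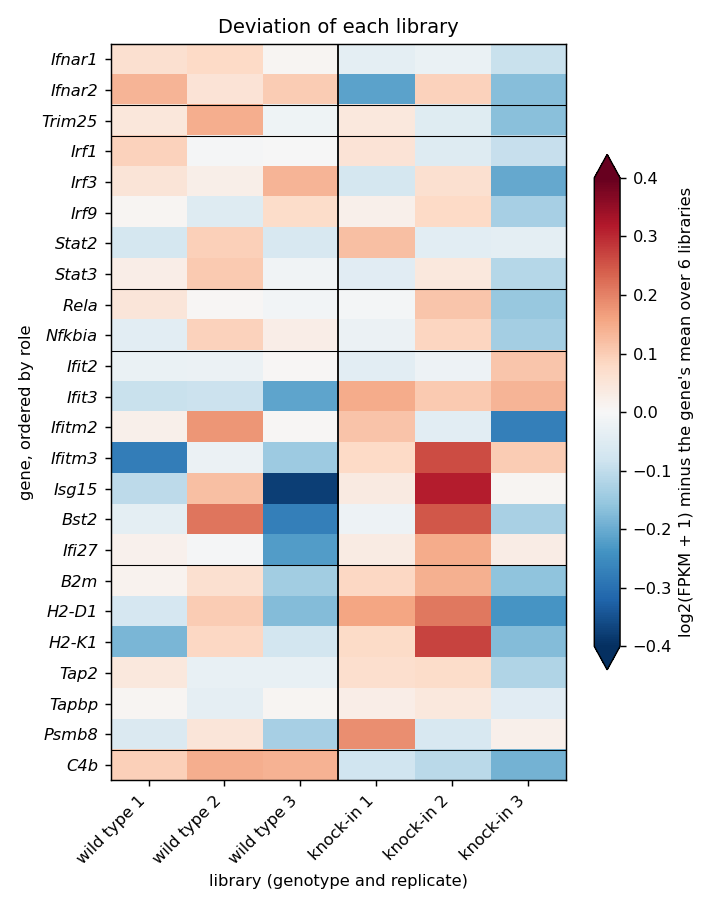
Deviation of each library from the gene's mean over the 6 libraries in log2(FPKM + 1), for the 24 tested genes by role (rows) and the libraries (columns), red above and blue below the mean. Knock-in replicate 3 is mostly blue and knock-in replicate 2 mostly red for the MHC class I genes, while Ifit3 and C4b divide by genotype.

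Markers of the cell types that carry much of this programme were also lowest in knock-in replicate 3. The summed FPKM of 14 microglia markers was 357 there and 382 to 400 in the other libraries. For 10 endothelial markers it was 83.7 against 95.2 to 99.6, and for 10 astrocyte markers 633 against 688 to 722. For 5 genes of red blood cells, all lower in knock-in on average, it was 761 against 1136 to 1479. This was not particular to these cells. Knock-in replicate 3 was also lowest for markers of myelinating oligodendrocytes (2942), pericytes and meningeal fibroblasts (57.9), and ependyma and choroid plexus (21.1). It was not the lowest for border macrophages and blood leukocytes. Over genotypes the microglia markers were level, with 7 of 14 higher and a median log2 difference of -0.0085, and endothelial markers were lower in 8 of 10, with a median of -0.05. Of 10 markers of border macrophages and blood leukocytes, the genes of T and natural killer cells and of neutrophils Cd3e, Cd8a, Nkg7, Ly6g and S100a8 had no row, and the 4 with a row summed to 2.56 to 3.11 FPKM. The part of these cells in the levels above was not tested. Markers of striatal projection neurons summed to 2763 to 3063 FPKM, with the highest sum in knock-in replicate 3, and Lrrk2 itself stood at 10.9 to 12.4 FPKM. Libraries correlated over genes at 0.983 to 0.990, and a library's FPKM summed to between 314146 and 335508.

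Another 141 genes of the same pathways were read from the same comparison, of which 135 had a row and 76 were tested. Of these, 36 were higher and 40 lower in knock-in, with a median log2 difference of -0.0064, and 0 were called in limma (0.0212% of all genes tested). At an unadjusted p under 0.05, 2 were higher and 2 lower, against 1.25% and 3.02% of all genes tested. The genotypes did not overlap in 3 higher and 8 lower genes of the 76, against 2.92% and 6.58%. These counts include Slfn2 and H2-M3, which passed the minimum only through knock-in, and C4a, which passed only through wild type. H2-M3 is also 1 of the 2 higher genes at an unadjusted p under 0.05. The places of these genes in the counts support nothing.

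Genes that produce and relay interferon numbered 20 tested, 7 higher and 13 lower. Traf6 and Traf3, adaptors of the sensing pathways, averaged lower, with 2.75 and 7.60 FPKM in wild type against 2.39 and 6.65 in knock-in, and the genotypes overlapped in neither. Jak1, the receptor kinase, stood at 17.0 ± 0.5305 and 17.5 ± 0.940 FPKM, and Irf8, a factor of microglia, at 1.23 ± 0.208 and 1.30 ± 0.138 FPKM (SD, n = 3 each). Among other interferon-induced genes 11 of 18 tested were higher. Of the 46 with a row, 18 were tested, and of the others 7 lay wholly higher in knock-in and 2 wholly lower, at means under 1 FPKM. Of all 23067 genes with a row, 14156 were tested, and of the others 351 lay wholly higher and 693 wholly lower. The share wholly higher was thus larger among the untested genes of this list than among all untested genes, and the share wholly lower was similar. The difference in shares was not tested. Beside Ifit3b, Slfn2 averaged 0.979 ± 0.0896 and 1.20 ± 0.126 FPKM without overlap and passed the minimum only through knock-in, and the lowest p in the other direction belonged to Nmi, at 1.32 and 1.20 FPKM, and Lgals3bp, at 5.10 and 4.41 FPKM.

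Other genes of MHC class I and II were higher in 12 of 16 tested. H2-M3, a nonclassical class I chain that presents formylated peptides, was measured at 0.811, 0.8999 and 0.784 FPKM in wild type against 1.27, 1.17 and 1.11 in knock-in. The groups did not overlap, and the log2 difference was 0.25 (SE 0.07, adjusted p = 0.997 in limma). With a wild-type mean of 0.832 FPKM, H2-M3 passed the minimum only through the knock-in libraries, so its test supports nothing, and the same holds for its place among the genes counted as higher. Canx, a chaperone of class I folding, stood at 53.7 and 57.2 FPKM. In the class II branch H2-DMb1, a chain of the peptide editor, was at 1.67, 1.42 and 1.98 FPKM in wild type against 1.00, 1.31 and 1.27 in knock-in. It was lower in all knock-in libraries, with a log2 difference of -0.29 (SE 0.10, adjusted p = 0.997 in limma). Cd74, the invariant chain, averaged 2.70 and 2.10 FPKM. The constitutive proteasome subunits Psmb5, Psmb6 and Psmb7 were level, with log2 differences of 0.08, -0.01 and 0.01.

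Other complement genes were lower in 9 of 11 tested. Serping1, the inhibitor of the C1 complex, was at 2.51, 2.49 and 2.72 FPKM in wild type against 2.17, 2.23 and 2.05 in knock-in. It was lower in all knock-in libraries, with a log2 difference of -0.18 (SE 0.06, adjusted p = 0.997 in limma). The 2 higher genes, Itgam and Cr1l, had differences of 0.0071 and 0.0022. Of 8 tested NF-kB genes 6 were lower. Tnfrsf1a, the main receptor of tumour necrosis factor, averaged 4.79 ± 0.0591 and 4.19 ± 0.492 FPKM (SD, n = 3 each). Nfkb2 averaged 1.47 and 1.27 FPKM. Neither gene overlapped, but the groups nearly touched in both. The lowest wild-type and highest knock-in libraries were at 4.73 and 4.70 FPKM for Tnfrsf1a, and at 1.29705 and 1.29643 FPKM for Nfkb2. Ikbkg and Chuk, of the kinase that frees NF-kB, had differences of 0.07 and 0.02. Tnf, Il1b, Il6 and Ccl2 had no row and were not analysed here.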

How the data were processed

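RNA of dorsal striatum was sequenced in bulk, and the authors deposited 1 table of FPKM per gene and library. The submitters' processing notes list StringTie, HISAT2, SAMtools and FastQC, with no version or role. Which genome build, annotation and strand setting were used is not given in the sources used here. The table holds no value of 0 in 23067 rows. In genes with 1 annotated transcript, 31.9% to 33.9% of low values lay within 0.1 of a whole multiple of the best step, so reads were not recovered and depth is unknown.

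Genes averaging 1 FPKM or more were compared as log2(FPKM + 1) with limma 3.58.1 in R 4.3.3 (trended and robust prior variance, two-sided, Benjamini-Hochberg adjustment over 14156 genes) and called at an adjusted p under 0.05. The script was tested on simulated data. Pseudocount, filter, scaling, variance model, a covariate of cortical markers, a replicate block and leaving out each library were varied. Same-numbered libraries deviated from their group means with correlations of -0.01, -0.07 and 0.19, and libraries of unlike number with -0.18 to 0.21. The main fit did not pair them. With 3 libraries per group these correlations do not settle whether equal numbers mark a pair.

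The members and lists were chosen with earlier results of these data known. Values in every library are given for members with an unadjusted p under 0.05 or separate groups, for the receptor chains, Irf9, Stat2, B2m, H2-D1 and H2-K1, and for members set beside a paralogue. Of each pathway list, at most 2 genes per direction are named, those of lowest p. Psmb10 is named outside this rule, beside Psmb8 and Psmb9. Isg15 and the ratio of Ifitm3 to Ifitm2 were added after their values were seen. Positions and overlaps come from GENCODE M21 on GRCm38 by gene identifier, promoters from RefSeq on GRCm38.p6. Shared 50-base stretches were counted in the longest transcript of each member.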

Additional observations from a re-analysis of the deposited data

How the results depend on the processing

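Under 15 alternatives 0 members were called, and the smallest adjusted p of any member in limma was 0.386, for C4b with the cortical covariate. Ifit3, Ifitm3 and C4b had an unadjusted p under 0.05 in every setting that tested them, with differences of 0.22 to 0.36, 0.23 to 0.36 and -0.300 to -0.22; a minimum of 5 FPKM tested only Ifitm3 of the 3. Genes called over the whole table numbered 3, and 3 to 14 with 1 library left out, 14 of them without knock-in replicate 2. They numbered 4 without a filter, 2 at a minimum of 5 FPKM and 2 with the replicate block, which called 0 members. The median over members was -0.0799 with the cortical covariate. Of 348 values of single members 327 kept their sign, and 21 in 10 genes did not, as for 24 of 330 in 10 of the named pathway genes. With the cortical covariate the reversed differences were -0.00841 for Stat2, -0.0168 for Bst2, -0.0801 for B2m, -0.0797 for H2-D1, -0.0795 for Tap2, -0.0198 for Tapbp, -0.00277 for Irf8, -0.0115 for Psmb5, -0.0294 for Psmb7 and -0.0236 for Itgam. Quantile normalization gave 0.0055 for Irf9 and median-of-ratios scaling 0.00723 for Psmb6. With 1 library left out, the differences that crossed 0 ran from -0.066 to 0.0391 for Irf9, -0.0267 to 0.0811 for Stat2, -0.0936 to 0.0368 for Rela, -0.11 to 0.00664 for Nfkbia, -0.0159 to 0.0613 for Ifit2, -0.0551 to 0.19 for Bst2, -0.0186 to 0.13 for B2m, -0.0208 to 0.076 for Tap2, -0.00263 to 0.0409 for Tapbp, -0.00463 to 0.0595 for Jak1, -0.33 to 0.0166 for Lgals3bp, -0.00131 to 0.15 for Psmb5, -0.0535 to 0.0511 for Psmb7, -0.0897 to 0.0271 for Psmb6, -0.0925 to 0.0942 for Itgam, -0.0201 to 0.0389 for Cr1l, -0.0735 to 0.23 for Ikbkg and -0.0312 to 0.0748 for Chuk. The cause was not tested. Depth is unknown, and differences of low genes are understated on this scale.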
